A study of Rattus norvegicus with 12 samples.

Results

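The sciatic nerve stumps held in a conduit labelled CC4:2 were compared with the control stumps, 6 of the 12 rat samples of the study, gene by gene over all 15190 genes that passed a low-count filter. The study examined truncated-cone conduits for pain relief after nerve injury, and its other 6 samples (a conduit labelled 4:4, and the 4:2 conduit loaded with verteporfin, an inhibitor of YAP) were not used in the comparison. Per the labels, the 3 Control samples and the 3 CC4:2 samples are sciatic nerve tissue labelled by treatment alone, with no genotype, strain, sex or age given. Treatment of the controls, time since surgery and the number of animals behind each group are absent from the labels, as is the meaning of 4:2 beyond the shape of the cone. If stumps of a group shared an animal, the p-values measure only the spread between samples, which may be technical.

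An injured nerve stump holds Schwann cells, the glia that wrap axons in myelin or bundle thin axons, fibroblasts, the perineurial sheath, vessels and many incoming blood cells. When a cut end does not reach a target, sprouting axons, glia, collagen and inflammatory cells can form a neuroma, a painful knot. YAP and TAZ are transcription co-activators of the Hippo pathway that respond to stretch and stiffness and act through TEAD factors.

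Stumps in the CC4:2 conduit carried more RNA of glia, nerve sheath, basement membrane, hedgehog signalling and fat cells than control stumps, and less RNA of neutrophils, lymphocytes, plasma cells, innate sensing and chemokines. Of the 15190 genes, 4363 were called at an adjusted p under 0.05 (28.7%). Of these, 2137 were higher in CC4:2 (14.1%) and 2226 were lower (14.7%). The median log2 fold change over all tested genes was -0.03, so positive values below stand for genes higher in CC4:2 against an almost unmoved middle. Scaling by library totals alone in place of TMM moved that median to 0.17 and the calls to 2900 higher and 1685 lower, 63.2% higher against 49.0%. In parentheses below stand the log2 fold change ± its SE and the adjusted p, and levels are TMM-scaled counts at a common library size (CPM) of single samples in the order of their replicate numbers, with 3 samples a group. At least 2-fold calls numbered 3333 (21.9%), and 6425 genes had an unadjusted p under 0.05 (42.3%). A further 10827 genes were not called, which does not show that they were alike. Samples of the groups did not overlap for 3696 genes in the higher direction (24.3%) and 3840 in the lower (25.3%). Of the tested genes 410 passed the low-count filter through 1 group alone and so had to differ, among them 6 of the chemokine list below, 4 of the neutrophil list, 3 each of the interleukin 1 and neurotrophic lists, and at most 2 of any other list. Of the genes named below, Emilin3, Foxo6, Slc24a2, Hhip and Klk10 passed through CC4:2 alone, and Cxcl1, Cxcl2, Cxcl6, Il6, Csf3, Prok2, Mmp10, Gdf15 and Hspa1a through the controls alone. Counts over lists are therefore descriptions.

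The groups were unequally tight. Root mean square log2 distances between samples were 1.05 and 1.13 from Control 1 to the other controls, 0.66 between Control 2 and Control 3, 0.72 to 0.82 within CC4:2 and 1.34 to 1.82 between the groups. Control 1 had more fibrillar collagen RNA (Col1a1 made up 2.81% of its counts, against 0.57% and 0.58% in the other controls) and less immunoglobulin RNA (1.05% of counts, against 4.99% and 5.94%). In CC4:2 the immunoglobulin share was 0.0025%, 0.019% and 0.046%. Leaving out Control 1 raised the calls to 2481 higher and 2618 lower. Leaving out Control 3, CC4:2-1 or CC4:2-2 reduced them most, to 924 and 1247, 1304 and 1290, and 1233 and 1285. Of the 4363 calls, 1843 were kept when any 1 of the 6 libraries was omitted, 836 higher and 1007 lower, and no gene was called in the opposite direction. The sequencer was a NovaSeq X Plus for replicates 1 and 2 and a DNBSEQ-T7 for replicate 3 of both groups. All 4363 calls had the same sign among the NovaSeq samples and in the 1 DNBSEQ pair, both of which are part of the fit, and a fit on the NovaSeq samples alone called 332 genes higher and 644 lower. Most genes named below were picked from the rule's genes because their calls were kept with each library left out, a choice made after the values were seen. Where a named call was lost, the libraries are given.

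**Figure D1:**
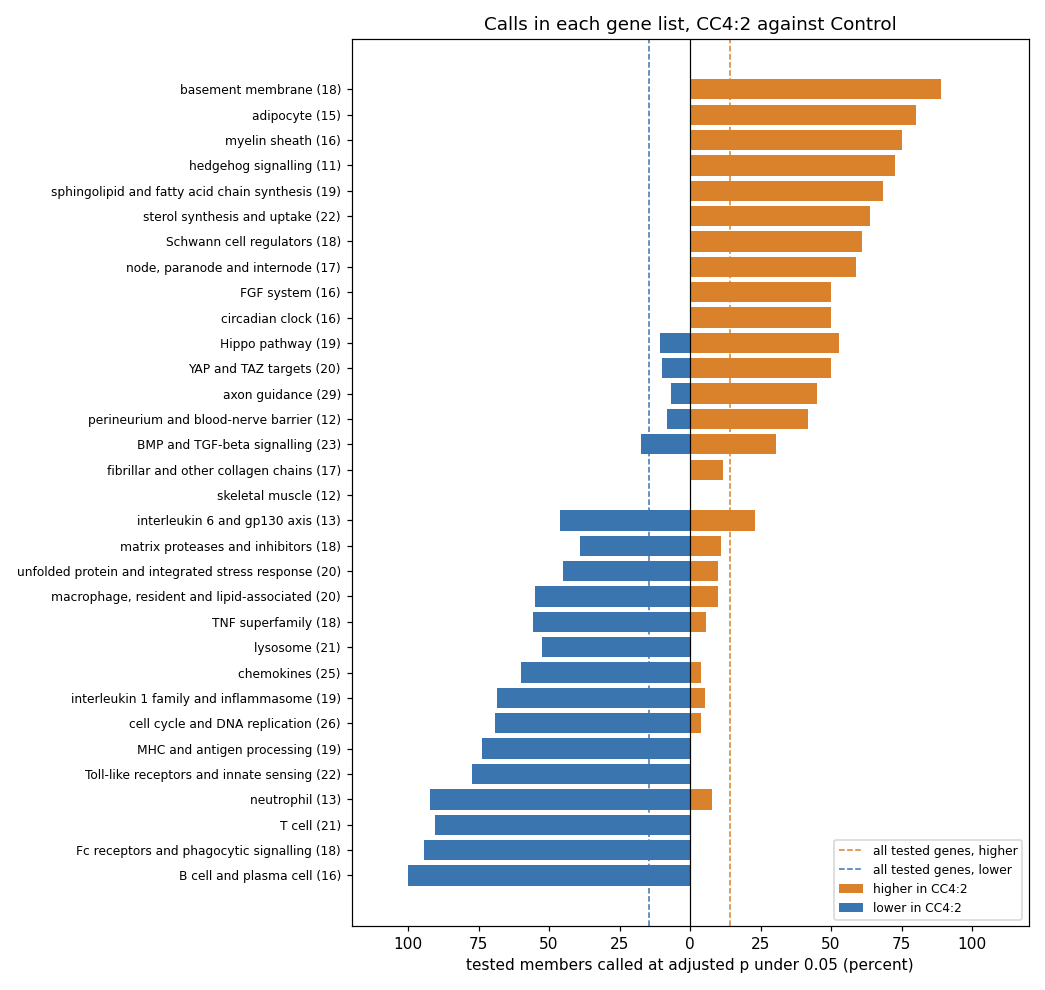
Share of tested members called higher (right, orange) or lower (left, blue) in CC4:2 at an adjusted p under 0.05, for a part of the 65 gene lists picked by hand. The number of members tested stands beside each list. Lists not drawn include one-sided ones (cytotoxic lymphocyte, 8 lower of 12) and flat ones (oxidative phosphorylation, 1 higher and 2 lower of 17). Dashed lines mark the shares over all tested genes, 14.1% higher and 14.7% lower: basement membrane, adipocyte and myelin lists lie far to the right, and B cell, phagocytic and neutrophil lists far to the left.

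Schwann cell regulators, a list that holds neural crest as well as myelin factors, were mainly called higher in CC4:2. The few tested genes of repair Schwann cells, the state glia enter after injury, were called in both directions. Of 18 Schwann cell regulators, 11 were called higher and 0 lower, with a median log2 fold change of 2.03. Leaving out single libraries moved that count by over 1.5 times, to 4 without Control 3, 4 without CC4:2-1 and 5 without CC4:2-2. Erbb2, part of the neuregulin receptor of Schwann cells, stood at 8.56, 16.2 and 11.1 CPM in the controls and 77.0, 76.9 and 50.2 CPM in CC4:2. Every CC4:2 sample lay above every control, and Erbb2 rose (2.51 ± 0.30, adjusted p = 0.0036). Foxd3, a neural crest factor, stood at 0.219, 1.80 and 0.407 CPM in the controls and 16.9, 20.2 and 6.10 CPM in CC4:2 (4.18 ± 0.84, adjusted p = 0.013), also with no overlap. S100b, the calcium-binding protein used to mark Schwann cells, stood at 13.8, 55.4 and 43.0 CPM in the controls and 450.1, 334 and 278 CPM in CC4:2 (3.24 ± 0.53, adjusted p = 0.0072). Sox10, the transcription factor on which the lineage depends, stood at 2.69, 40.0 and 13.8 CPM in the controls and 230.2, 217 and 110.3 CPM in CC4:2 (3.31 ± 0.89, adjusted p = 0.033). The groups did not overlap for Sox10, but Control 1 was far below the other controls, and the call was lost without Control 3, CC4:2-1 and CC4:2-2 in turn (adjusted p up to 0.1). Egr2, which drives the myelin programme, was at 18.8, 31.8 and 29.3 CPM in the controls and 163, 109.7 and 46.5 CPM in CC4:2 (2.00 ± 0.46, adjusted p = 0.02), and its call was lost without Control 3, CC4:2-1 and CC4:2-2 in turn (adjusted p up to 0.062). Lgi4, a ligand that Schwann cells secrete, was not called (2.05 ± 0.83, adjusted p = 0.11), but it was without Control 2 (3.45, adjusted p = 0.017), by DESeq2 and by limma-voom (adjusted p = 0.014 and 0.042). Of 9 repair Schwann cell genes, 3 were called higher and 2 lower (median 0.75). The higher count was 1 without Control 3, 1 without CC4:2-1 and 1 without CC4:2-2, and the lower count 1 without Control 1, 1 without Control 2, 1 without Control 3, 1 without CC4:2-1 and 1 without CC4:2-2. Jun, the factor that drives the repair state, stood at 92.5, 89.3 and 91.0 CPM in the controls and 152, 179.5 and 128 CPM in CC4:2 (0.75 ± 0.18, adjusted p = 0.021), with no overlap, and its call was lost without Control 2, Control 3, CC4:2-1 and CC4:2-2 in turn (adjusted p up to 0.082). Runx2, another transcription factor of that list, was lower (-1.44 ± 0.25, adjusted p = 0.0084).

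Structural myelin genes had the larger folds and the less stable calls. The list had 16 tested genes, 12 of them called higher with a median log2 fold change of 3.02, and no call lower. The higher count was 2 without Control 3, 3 without CC4:2-1 and 3 without CC4:2-2. Pmp22, a protein of peripheral compact myelin, stood at 145, 739.9 and 429 CPM in the controls and 5214, 2854 and 2318 CPM in CC4:2 (2.98 ± 0.66, adjusted p = 0.018). Every CC4:2 sample exceeded every control, while Control 1 lay below the other controls. The Pmp22 call was lost without Control 3 (adjusted p = 0.065). Within the NovaSeq samples its log2 fold change was 3.19 and not called. In that fit 0 genes of the myelin list were called, and with the replicate block 2 were called higher.

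Genes of the node of Ranvier and its flanks, where sodium and potassium channels are clustered along the axon, followed the same pattern. Of 17 genes, 10 were called higher and 0 lower (median 1.66), and the higher count was 3 without Control 3, 3 without CC4:2-1 and 3 without CC4:2-2. Ank3, the ankyrin that anchors node proteins, stood at 12.9, 31.2 and 23.9 CPM in the controls and 149, 132 and 72.8 CPM in CC4:2 (2.38 ± 0.40, adjusted p = 0.0079). Cadm3, an adhesion molecule of the internode, stood at 36.8 to 116 CPM in the controls and 335 to 503 CPM in CC4:2 (2.50 ± 0.43, adjusted p = 0.0084), and the scaffold Mpdz at 30.8 to 51.4 CPM in the controls and 101 to 136 CPM in CC4:2 (1.55 ± 0.25, adjusted p = 0.0067). Neither gene's groups overlapped. Kcna1, the juxtaparanodal potassium channel, stood at 2.85, 54.7 and 28.5 CPM in the controls and 386, 253 and 219 CPM in CC4:2 (3.32 ± 0.92, adjusted p = 0.036) and lost its call without Control 3, CC4:2-1, CC4:2-2 and CC4:2-3 in turn (adjusted p up to 0.11).

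Lipid genes that supply membrane were higher and lipid uptake genes of phagocytes lower. Of 22 genes of sterol synthesis and uptake, 14 were called higher and 0 lower (median 1.05, 8 without Control 3). Fdft1, the squalene synthase, stood at 22.5, 30.8 and 28.6 CPM in the controls and 106, 78.1 and 64.7 CPM in CC4:2 (1.60 ± 0.23, adjusted p = 0.0053). Of 19 genes of sphingolipid and fatty acid chain synthesis, 13 were called higher and 0 lower, a higher count that was 5 without Control 3, 6 without CC4:2-1, 8 without CC4:2-2 and 8 without CC4:2-3. Among them Elovl6, a fatty acid elongase, stood at 4.28, 3.12 and 3.50 CPM in the controls and 19.8, 17.8 and 11.7 CPM in CC4:2 (2.17 ± 0.28, adjusted p = 0.0044). Of 14 genes of cholesterol efflux and lipid uptake, 9 were called lower and 1 higher (median -1.09). The 1 higher call, the lipase Lpl (1.95 ± 0.41, adjusted p = 0.015), was lost without Control 3 (adjusted p = 0.055). Apoe, the lipid carrier of macrophages and glia, stood at 13714, 10755 and 10832 CPM in the controls and 2206, 2071 and 2258 CPM in CC4:2 (-2.43 ± 0.34, adjusted p = 0.0051). The lowest control lay far above the highest CC4:2 sample. Msr1 and Olr1, scavenger receptors, fell by 2.36 and 4.52 on the log2 scale (SE 0.25 and 0.66, adjusted p = 0.0028 and 0.0054).

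Fat cell genes were among the largest rises. Of 15 adipocyte genes, 12 were called higher and 0 lower, with a median of 3.18. Their summed level was 639 to 739 CPM in the controls and 1349 to 4051 CPM in CC4:2. Adipoq, the hormone adiponectin, stood at 21.1, 24.4 and 40.6 CPM in the controls and 296, 759.6 and 556 CPM in CC4:2 (4.23 ± 0.46, adjusted p = 0.003), and Cidec, a lipid droplet protein, at 7.46, 7.96 and 6.83 CPM in the controls and 61.4, 177 and 154 CPM in CC4:2 (4.14 ± 0.42, adjusted p = 0.0027). Lep, the hormone leptin, stood at 3.51, 5.46 and 3.34 CPM in the controls and 33.1, 138 and 101 CPM in CC4:2 (4.47 ± 0.57, adjusted p = 0.004). Pck1, an enzyme of glucose and glycerol synthesis, is not a member of the adipocyte list. It stood at 2.74, 2.11 and 6.26 CPM in the controls and 28.5, 233 and 149 CPM in CC4:2 (5.22 ± 0.87, adjusted p = 0.0076). For all 4 genes CC4:2-1 was the lowest of its group and still above every control. Skeletal muscle genes, another tissue that can adhere to a nerve, gave no call in either direction among 12 tested, but their RNA was very uneven between libraries. The summed muscle level was 8.45, 962 and 9822.2 CPM in the controls and 1371, 13945 and 250.2 CPM in CC4:2, so muscle RNA was present in both groups, and the list's median log2 fold change of 0.09 ran from -2.17 without CC4:2-2 to 3.14 without Control 3. In these bulk samples fewer cells of a type and less RNA per cell cannot be told apart, and the part of adhering fat or muscle in these rises was not tested.

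Hedgehog signalling, which Schwann cells use to organise the perineurial sheath, was called higher in 8 of 11 genes and lower in 0 (median 2.34). The ligand Dhh, made by Schwann cells, stood at 9.11, 26.4 and 15.0 CPM in the controls and 169.7, 105 and 72.4 CPM in CC4:2 (2.78 ± 0.48, adjusted p = 0.0083). The co-receptor Boc stood at 25.3, 40.5 and 28.9 CPM in the controls and 127, 198 and 153 CPM in CC4:2 (2.34 ± 0.26, adjusted p = 0.0031). Neither overlapped. Receptors and targets moved the same way. Hhip, a target that binds and restrains the ligand, stood at 0, 0.234 and 0.163 CPM in the controls and 6.55, 5.30 and 3.21 CPM in CC4:2 (5.29 ± 0.80, adjusted p = 0.0058), so it was near its detection limit in all 3 controls. Ptch1, the main receptor, stood at 15.8 to 90.2 CPM in the controls and 290.1 to 402 CPM in CC4:2 (2.89 ± 0.61, adjusted p = 0.015, lost without Control 3 (adjusted p = 0.059)). Of the transcription factors, Gli2 rose (1.91 ± 0.23, adjusted p = 0.0036) and Gli1 rose (3.24 ± 0.69, adjusted p = 0.016, lost without Control 3 (adjusted p = 0.057)), while Gli3 was not called (0.57 ± 0.42, adjusted p = 0.34) except without Control 1 (1.15, adjusted p = 0.031).

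In the perineurium, the layered sheath whose tight junctions seal the nerve, Itgb4, the laminin-binding integrin of perineurial cells and Schwann cells, stood at 90.3, 522 and 161 CPM in the controls and 3268, 3470.2 and 2963 CPM in CC4:2 (3.65 ± 0.69, adjusted p = 0.011). Cldn1, a sealing claudin, stood at 4.99, 88.6 and 21.1 CPM in the controls and 594, 310.2 and 512 CPM in CC4:2 (3.63 ± 0.98, adjusted p = 0.033). Control 1 was again the lowest by far for Cldn1, whose call was lost without Control 3, CC4:2-1, CC4:2-2 and CC4:2-3 in turn (adjusted p up to 0.1). Gjb2, a gap junction connexin, is not a member of the perineurium and barrier list and gave one of the 10 smallest p-values. It stood at 2.52, 3.20 and 2.60 CPM in the controls and 53.8, 61.2 and 41.1 CPM in CC4:2 (4.23 ± 0.23, adjusted p = 0.0013). Of the 12 tested genes of the barrier list, 5 were called higher and 1 lower, and the higher count was 3 without CC4:2-1, 3 without CC4:2-2 and 3 without CC4:2-3. The lower member was Msln, a mesothelial surface protein (-2.68 ± 0.30, adjusted p = 0.0032). Pecam1, an endothelial marker of the same list, was not called (0.34 ± 0.37, adjusted p = 0.53).

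Basement membrane genes had the highest share of members called higher among the 65 lists. Of 18 tested, 16 were called higher and 0 lower (median 1.88), and 13 of these calls were kept with each library left out. Col4a3, a collagen IV chain, stood at 1.70, 2.65 and 2.44 CPM in the controls and 20.5, 29.4 and 18.3 CPM in CC4:2 (3.33 ± 0.30, adjusted p = 0.0022). Nid2, which links laminin to collagen IV, stood at 64.6, 60.6 and 41.2 CPM in the controls and 283, 279 and 222 CPM in CC4:2 (2.24 ± 0.24, adjusted p = 0.0028). Hspg2, the heparan sulfate proteoglycan perlecan, stood at 489.5, 488 and 374 CPM in the controls and 1812, 3311 and 1641 CPM in CC4:2 (2.32 ± 0.37, adjusted p = 0.0068). No CC4:2 sample of these 3 genes fell into the control range. Laminin chains rose as well: Lama2 by 2.63 ± 0.46 and Lamb2 by 2.40 ± 0.31 (adjusted p = 0.0084 and 0.0042). Their receptors Itga7, Itga6 and Dag1 rose by 3.19 ± 0.44, 2.67 ± 0.38 and 2.11 ± 0.30 (adjusted p = 0.005, 0.0052 and 0.0052). The uncalled members were Nid1 (0.93 ± 0.32, adjusted p = 0.068, and 0.011 without Control 1) and Itgb1 (0.26 ± 0.27, adjusted p = 0.51).

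Fibrillar collagen, the bulk of scar, did not separate the groups. Col1a1 stood at 28710.4, 6118 and 6489 CPM in the controls and 8445, 25055 and 13456 CPM in CC4:2 (0.18 ± 0.76, adjusted p = 0.88), and the groups overlapped because Control 1 held more than any CC4:2 sample. Without Control 1 the log2 fold change of Col1a1 was 1.31 and not called. Col3a1 stood at 19966, 5053 and 4267 CPM in the controls and 9516, 24999 and 16984 CPM in CC4:2 (0.81 ± 0.73, adjusted p = 0.44) and was called higher without Control 1 (1.88, adjusted p = 0.033). Of 17 collagen chains, 2 were called higher and 0 lower, a share near the 14.1% of all genes. That count was 9 without Control 1, 1 without Control 2, 0 without Control 3, 1 without CC4:2-1, 0 without CC4:2-2 and 1 without CC4:2-3. Small proteoglycans that bind collagen were called higher in 4 of 10, among them Ecm2 (51.1 to 66.8 CPM in the controls and 206 to 353 CPM in CC4:2; 2.33 ± 0.26, adjusted p = 0.0032) and Prelp (64.1 to 103 CPM in the controls and 225 to 375 CPM in CC4:2; 1.80 ± 0.28, adjusted p = 0.0064). Emilin3, an extracellular glycoprotein, stood at 0.494, 0.468 and 0.569 CPM in the controls and 15.1, 20.5 and 17.4 CPM in CC4:2 (5.10 ± 0.27, adjusted p = 0.0013), also one of the 10 smallest p-values.

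**Figure D2:**
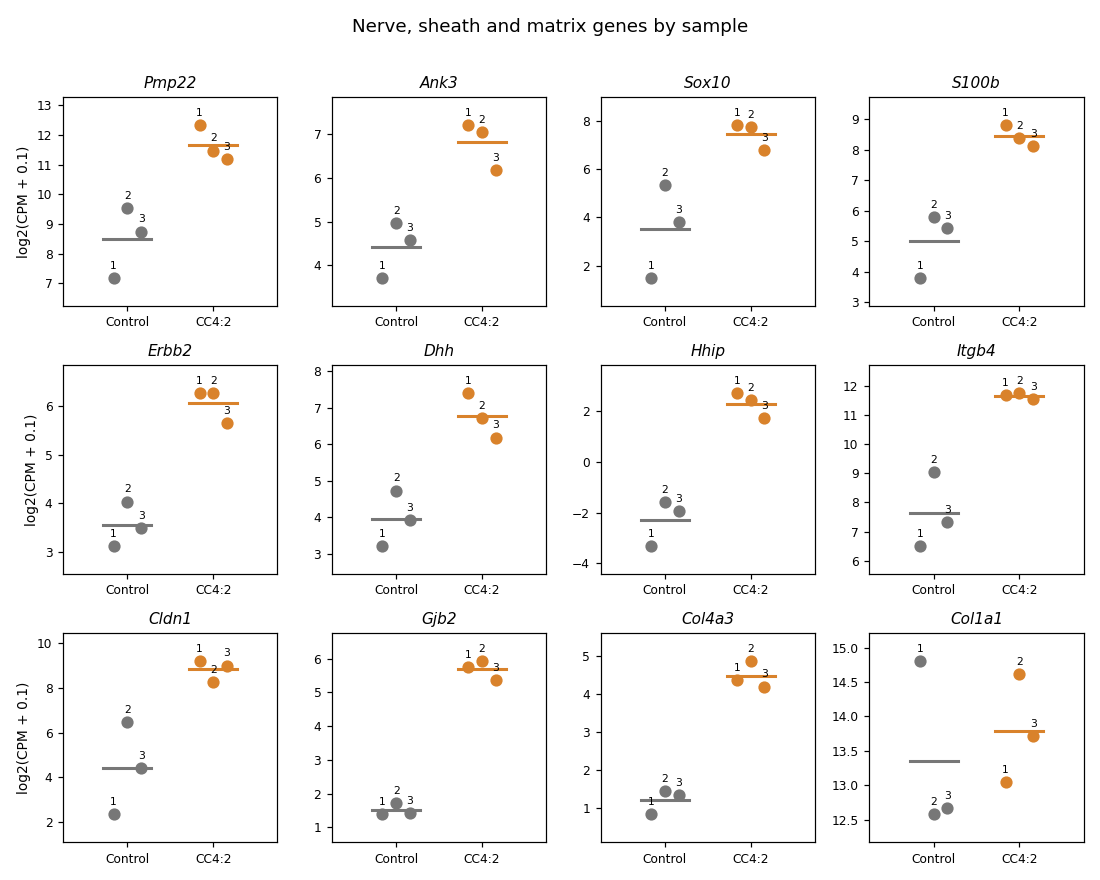
Levels of 12 nerve, sheath and matrix genes as log2(CPM + 0.1) in each of the 3 Control (grey) and 3 CC4:2 (orange) samples, with replicate numbers 1 to 3 printed at the points and a bar at the mean of each group's 3 log values. Groups do not overlap for 11 genes, and Control 1 is the lowest control for each of these 11, by far for Sox10 and Cldn1. For Col1a1 it is the highest of all 6 samples.

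Growth factor and guidance genes were called mainly higher. In the FGF system 8 of 16 genes were higher and 0 lower (4 without Control 3 and 5 without CC4:2-2 higher, 1 without Control 1 lower). Fgf1, an FGF without a classical secretion signal, stood at 7.62, 23.6 and 15.9 CPM in the controls and 174, 104 and 114 CPM in CC4:2 (3.06 ± 0.44, adjusted p = 0.0052). Its receptors Fgfr1 and Fgfr2 rose by 1.64 ± 0.27 and 1.57 ± 0.23. Among neurotrophic factors and receptors 7 of 16 were higher and 1 lower (4 without Control 3 and 4 without CC4:2-2 higher, 0 without Control 3, 0 without CC4:2-1 and 0 without CC4:2-2 lower). Of the 13 that did not pass the filter through 1 group alone, 5 were higher and 0 lower. Gfra2, the neurturin co-receptor, stood at 28.3, 26.2 and 7.81 CPM in the controls and 122, 99.97 and 122 CPM in CC4:2 (2.46 ± 0.46, adjusted p = 0.011), and Cntfr, the receptor of ciliary neurotrophic factor, at 0.987, 2.50 and 1.55 CPM in the controls and 18.0, 11.6 and 8.89 CPM in CC4:2 (2.94 ± 0.45, adjusted p = 0.0059). The groups did not overlap for either receptor. Of 29 axon guidance genes, 13 were higher and 2 lower (8 without Control 2, 8 without Control 3, 8 without CC4:2-1 and 8 without CC4:2-2 higher, 1 without Control 2, 1 without Control 3, 1 without CC4:2-1 and 1 without CC4:2-3 lower). Netrin Ntn1 stood at 12.7, 40.3 and 30.0 CPM in the controls and 252, 196 and 198 CPM in CC4:2 (2.96 ± 0.42, adjusted p = 0.0051), Slit2, a repellent, at 31.3, 38.9 and 24.1 CPM in the controls and 162, 102 and 104 CPM in CC4:2 (1.96 ± 0.27, adjusted p = 0.0048), and Sema3b at 14.5, 71.8 and 37.7 CPM in the controls and 542, 549 and 250.5 CPM in CC4:2 (3.44 ± 0.64, adjusted p = 0.01). In the other direction Sema4d, a semaphorin that lymphocytes carry, stood at 55.1, 108 and 126 CPM in the controls and 8.48, 27.2 and 10.4 CPM in CC4:2 (-2.65 ± 0.53, adjusted p = 0.013).

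BMP and TGF-beta genes were called in both directions, against 14.1% higher and 14.7% lower over all tested genes. Of 23, 7 were higher, all 7 kept with each library left out. A further 4 were lower, a share near that of all genes, with 2 without Control 3, 2 without CC4:2-1 and 2 without CC4:2-3. Of the 22 that did not pass the filter through 1 group alone, 7 were higher and 3 lower. Chrdl1, a secreted BMP antagonist, stood at 15.5, 36.4 and 20.9 CPM in the controls and 187, 193 and 243 CPM in CC4:2 (3.10 ± 0.35, adjusted p = 0.0032). The receptor Bmpr1a rose by 1.79 ± 0.21 and the co-receptor Tgfbr3 by 2.36 ± 0.36. The TGF-beta receptor Tgfbr1 stood at 352, 199 and 262 CPM in the controls and 108, 67.4 and 93.7 CPM in CC4:2 and was lower (-1.59 ± 0.29, adjusted p = 0.0093). Gdf15, a stress-induced member of the family, stood at 2.96, 2.42 and 5.13 CPM in the controls and 0.052, 0.228 and 0.368 CPM in CC4:2, a level that passed the filter through the controls alone.

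Of the 10 genes of smallest p, 8 were lower in CC4:2 and most are genes of white blood cells. Csf3r, the neutrophil growth factor receptor, stood at 89.5, 68.1 and 85.8 CPM in the controls and 3.28, 2.74 and 3.42 CPM in CC4:2 (-4.69 ± 0.20, adjusted p = 0.0013). Cd38, an enzyme on the surface of plasma cells and other leukocytes, stood at 169.8, 157 and 175 CPM in the controls and 13.9, 13.8 and 17.5 CPM in CC4:2 (-3.47 ± 0.17, adjusted p = 0.0013), and the chemokine receptor Cxcr4 at 149.8, 123 and 183 CPM in the controls and 10.7, 11.3 and 12.2 CPM in CC4:2 (-3.74 ± 0.20, adjusted p = 0.0013). Each group kept within a narrow range for these 3 genes and the groups lay far apart.

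Chemokines, the secreted proteins that draw leukocytes into tissue, were called lower in 15 of 25 tested genes and higher in 1 (median -2.98), a higher count that was 0 without Control 1, 0 without Control 3, 0 without CC4:2-1 and 0 without CC4:2-2. Of the 19 members that did not pass the filter through 1 group alone, 9 were lower and 1 higher. Many chemokine genes are induced through NF-kB, so their promoters were searched for GGGA and TCC separated by any 3 bases, on both strands and within 250 bases before the start site. That pattern was in 7 of 19 chemokine promoters (36.8%) and in 4.15% of 10221 promoters of tested genes. Over those 10221 it was in 5.68% of genes called higher, 5.02% of those called lower and 3.67% of those not called. The windows of 4 lower genes follow (RefSeq, GRCr8, read 5′ to 3′ toward the gene, motif letters in capitals, with a second match overlapping the first in Cxcl1, Cxcl6 and Cxcl10), shown for where the motif lies relative to the start site. They lie at chr14:17479350-17479449 (minus strand), chr14:17596450-17596549 (minus strand), chr10:67513991-67514090 (plus strand) and chr14:15988894-15988993 (plus strand).
Cxcl1: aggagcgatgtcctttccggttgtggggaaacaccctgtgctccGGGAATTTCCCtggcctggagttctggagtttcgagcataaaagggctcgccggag
Cxcl6: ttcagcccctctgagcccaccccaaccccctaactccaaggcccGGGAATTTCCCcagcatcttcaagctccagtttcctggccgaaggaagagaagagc
Ccl7: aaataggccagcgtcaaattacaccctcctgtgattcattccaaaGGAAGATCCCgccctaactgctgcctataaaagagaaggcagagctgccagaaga
Cxcl10: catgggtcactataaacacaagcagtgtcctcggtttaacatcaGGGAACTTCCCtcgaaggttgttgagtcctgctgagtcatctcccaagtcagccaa

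A match of letters is a description and not a binding site. Cxcl1 and Cxcl6, neutrophil attractants, stood at 28.4, 9.76 and 26.2 CPM in the controls and 0.468, 0.114 and 0.21 CPM in CC4:2 (-6.29 ± 0.65, adjusted p = 0.0027) and 248, 58.5 and 106 CPM in the controls and 0.364, 0.171 and 0.263 CPM in CC4:2 (-8.96 ± 0.75, adjusted p = 0.0019), so CC4:2 samples were near the detection limit. Ccl7, a monocyte attractant, stood at 49.3, 55.5 and 64.4 CPM in the controls and 6.09, 4.33 and 9.57 CPM in CC4:2 (-3.08 ± 0.32, adjusted p = 0.0027). Cxcl10, an interferon-induced T cell attractant, stood at 23.4, 37.9 and 105 CPM in the controls and 4.99, 4.85 and 11.1 CPM in CC4:2 (-2.98 ± 0.64, adjusted p = 0.016), and its call was lost without CC4:2-1 and CC4:2-2 in turn (adjusted p up to 0.068). Cxcl2, another neutrophil attractant, stood at 60.3, 87.7 and 173 CPM in the controls and 0.26, 0.057 and 0.0526 CPM in CC4:2 (-9.66 ± 0.71, adjusted p = 0.0016). The fibroblast chemokine Cxcl12 was not called (-0.62 ± 0.30, adjusted p = 0.16). Ccl22 and Ccl24 hold the same pattern and were not called either. In all 9 patterns were searched in the promoters of 65 lists, and the 3 pairs of pattern and list with sequences shown were chosen after the shares were seen. Other pairings named for a pathway follow, with the share over all 10221 promoters in percent. The interferon response element (GAAA, any 2 bases, GAAA) was in 8 of 12 interferon-stimulated genes (2.68%). TCACNCCAC was in 0 of 16 sterol genes (0.96%) and TTTNNCGC (E2F) in 5 of 18 cell cycle genes (6.92%). In clock genes CACGTG was in 4 of 12 (8.12%) and TTANNTAA in 1 of 12 (3.04%). TGGGTGGTC (GLI) was in 1 of 9 hedgehog genes (0.27%). CACGTG was also in 6 of 11 Hox promoters (54.5%), a pair with no such reason. Of the 17 tested interferon-stimulated genes 2 were called lower, a smaller share than the 14.7% of all genes, and 0 higher, and the lower count was 5 without Control 1, 1 without Control 3, 1 without CC4:2-1 and 0 without CC4:2-2.

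Cytokines fell in number and by large factors. In the interleukin 1 family and inflammasome 13 of 19 genes were lower and 1 higher (8 without CC4:2-1 lower). Among the 16 that did not pass the filter through 1 group alone, 10 were lower and 1 higher. Il1b, the secreted cytokine, stood at 246, 202 and 487 CPM in the controls and 3.28, 3.25 and 5.10 CPM in CC4:2 (-6.33 ± 0.47, adjusted p = 0.0016). Its natural antagonist Il1rn stood at 162, 195 and 424 CPM in the controls and 13.2, 9.30 and 8.79 CPM in CC4:2 (-4.64 ± 0.45, adjusted p = 0.0026), so agonist and antagonist were both lower. Il33, an alarmin of stromal cells, was not called (0.29 ± 0.24, adjusted p = 0.4). On the gp130 axis 6 of 13 were lower and 3 higher. Il6 stood at 22.6, 7.10 and 14.4 CPM in the controls and 0.468, 0.171 and 0.158 CPM in CC4:2 (-5.74 ± 0.64, adjusted p = 0.0032) and Osm at 20.2, 9.13 and 18.5 CPM in the controls and 0.572, 0.855 and 0.631 CPM in CC4:2 (-4.53 ± 0.41, adjusted p = 0.0023). Lifr, a receptor of the same axis, rose instead, at 11.5, 18.9 and 13.9 CPM in the controls and 55.3, 64.8 and 63.8 CPM in CC4:2 (2.05 ± 0.22, adjusted p = 0.0029). In the TNF superfamily 10 of 18 were lower and 1 higher. Among the lower was Tnf at 5.16, 7.18 and 8.87 CPM in the controls and 0.624, 0.456 and 0.421 CPM in CC4:2 (-3.80 ± 0.38, adjusted p = 0.0026), and the higher one was Tnfsf10, a death receptor ligand, at 12.4, 17.7 and 12.9 CPM in the controls and 23.4, 32.1 and 39.6 CPM in CC4:2 (1.15 ± 0.25, adjusted p = 0.018), a call lost without Control 3 (adjusted p = 0.068).

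Sensing and engulfing genes were lower with few exceptions. Of 22 innate sensors 17 were lower and 0 higher, with 12 calls kept with each library left out. Tlr2, a receptor of bacterial lipopeptides, stood at 156, 147 and 173 CPM in the controls and 17.9, 15.4 and 21.4 CPM in CC4:2 (-3.12 ± 0.19, adjusted p = 0.0013), whereas Tlr4, the endotoxin receptor, stood at 28.5, 19.7 and 17.3 CPM in the controls and 20.6, 17.1 and 29.3 CPM in CC4:2 and was not called (0.03 ± 0.28, adjusted p = 0.95). Of 18 Fc receptor and phagocytic signalling genes 17 were lower and 0 higher (median -1.94), and 16 calls were kept with each library left out. Itgb2, the leukocyte integrin chain, stood at 306, 275 and 329 CPM in the controls and 73.6, 65.5 and 59.5 CPM in CC4:2 (-2.20 ± 0.18, adjusted p = 0.0019). The 1 uncalled member was Sirpa (-0.36 ± 0.21, adjusted p = 0.23). Of 21 lysosomal genes 11 were lower (7 without Control 3, 6 without CC4:2-2 and 6 without CC4:2-3), with Ctsz, a cathepsin, at 541, 411 and 509 CPM in the controls and 64.7, 72.1 and 77.2 CPM in CC4:2 (-2.77 ± 0.21, adjusted p = 0.0017) and the membrane protein Lamp1 not called (-0.12 ± 0.22, adjusted p = 0.71).

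Neutrophil genes were lower in 12 of 13 and higher in 1, with a summed level of 528 to 901 CPM in the controls and 45.9 to 63.3 CPM in CC4:2. Without the 4 members that passed the filter through the controls alone, 8 of 9 were lower and 1 higher. The exception, the granule enzyme Mpo, stood at 0.878, 1.09 and 0.976 CPM in the controls and 2.03, 14.8 and 11.2 CPM in CC4:2 (3.25 ± 0.72, adjusted p = 0.018) and lost its call without Control 2, Control 3 and CC4:2-2 in turn (adjusted p up to 0.063). Prok2, a neutrophil peptide, had no count in CC4:2 and 7.18 to 10.7 CPM in the controls, at least 175-fold lower taking 3 counts in the whole group as the floor, a bound for counting error alone. Csf3, the neutrophil growth factor, likewise had none, at least 46.8-fold lower.

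Macrophage genes did not move as a block. Of 20, 11 were lower and 2 higher (1 without Control 2, 1 without Control 3, 1 without CC4:2-1 and 1 without CC4:2-2 higher). Nos2, the nitric oxide synthase of inflammatory macrophages, stood at 154, 276 and 713 CPM in the controls and 1.51, 3.59 and 1.37 CPM in CC4:2 (-7.46 ± 0.81, adjusted p = 0.003), and Arg1, the arginase used to mark repair macrophages, at 356, 70.2 and 139 CPM in the controls and 2.50, 3.48 and 3.63 CPM in CC4:2 (-5.88 ± 0.68, adjusted p = 0.0034). Both markers were therefore lower in every CC4:2 sample than in any control. Csf1r, Mrc1 and Cd163, which mark macrophages broadly and resident ones, were not called (-0.51 ± 0.25, -0.44 ± 0.31 and 0.18 ± 0.44, adjusted p = 0.17, 0.32 and 0.78). Gpnmb, a marker of lipid-laden macrophages, stood at 2218, 1697 and 2283 CPM in the controls and 430.0, 330.3 and 303 CPM in CC4:2 (-2.54 ± 0.29, adjusted p = 0.0034). Acod1, the itaconate enzyme of activated macrophages, stood at 29.1, 238 and 289 CPM in the controls and 0.78, 0.228 and 0.368 CPM in CC4:2 (-8.62 ± 1.08, adjusted p = 0.0039). Among iron genes, Tfrc, the transferrin receptor, stood at 386, 465 and 464 CPM in the controls and 49.0, 25.9 and 27.9 CPM in CC4:2 (-3.68 ± 0.32, adjusted p = 0.0021) and Hmox1, which breaks down haem, at 315, 197 and 258 CPM in the controls and 15.8, 25.2 and 22.7 CPM in CC4:2 (-3.60 ± 0.28, adjusted p = 0.0017).

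Lymphocyte genes were mainly lower. T cell genes were called lower in 19 of 21 (median -3.28), with a summed level of 488 to 783 CPM in the controls and 44.8 to 101 CPM in CC4:2. Cd3e, a chain of the T cell receptor complex, stood at 28.4, 45.6 and 59.8 CPM in the controls and 1.66, 1.88 and 4.00 CPM in CC4:2 (-4.14 ± 0.45, adjusted p = 0.003), and Cd8a at 87.1, 58.9 and 53.3 CPM in the controls and 1.87, 3.42 and 7.05 CPM in CC4:2 (-4.01 ± 0.51, adjusted p = 0.004). Of 16 B cell and plasma cell genes 16 were lower (median -5.18; 10 without CC4:2-2), with a summed level of 1083 to 8383 CPM in the controls and 124 to 329.8 CPM in CC4:2. Mzb1, which helps plasma cells assemble antibody, stood at 75.4, 636 and 579 CPM in the controls and 0.468, 1.20 and 5.10 CPM in CC4:2 (-7.57 ± 1.27, adjusted p = 0.0078). Control 1 was the lowest control for Mzb1 and still above all CC4:2 samples. Cytotoxic genes were lower in 8 of 12 (4 without Control 3, 5 without CC4:2-1 and 4 without CC4:2-2) and antigen presentation genes in 14 of 19 (7 without Control 2, 7 without Control 3, 7 without CC4:2-1 and 7 without CC4:2-2).

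**Figure D3:**
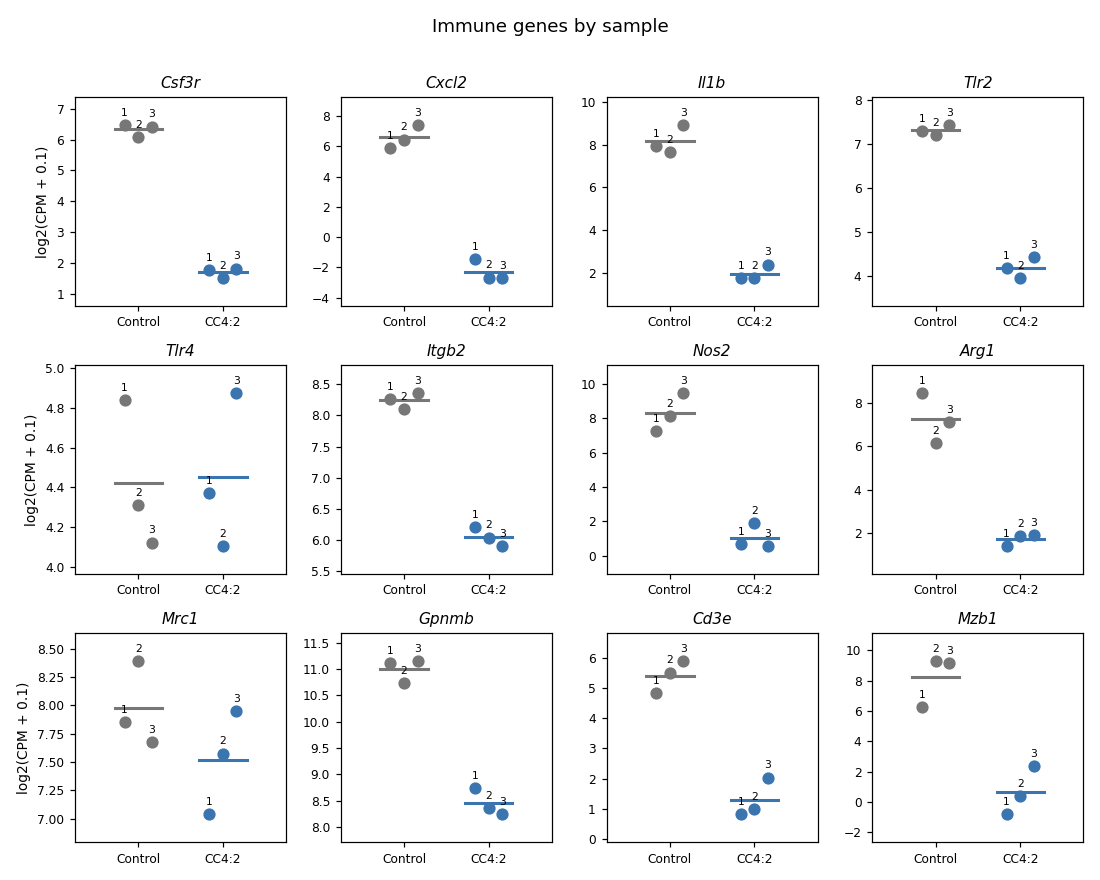
Levels of 12 immune genes as log2(CPM + 0.1) in each of the 3 Control (grey) and 3 CC4:2 (blue) samples, with replicate numbers at the points and a bar at the mean of each group's 3 log values. CC4:2 samples lie below all controls for Csf3r, Cxcl2, Il1b, Tlr2, Itgb2, Nos2, Arg1, Gpnmb, Cd3e and Mzb1, while the groups overlap for Tlr4 and Mrc1.

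The summed levels of these marker lists moved together with the changes in cytokines, chemokines and sensing genes, and their part in them was not tested. Genes of secretory load, which plasma cells express at high level, moved with them. Of 20 genes of the unfolded protein and integrated stress responses 9 were lower and 2 higher, and the lower count was 14 without Control 1, 5 without Control 2, 4 without Control 3, 4 without CC4:2-1, 5 without CC4:2-2 and 5 without CC4:2-3. Sdf2l1, a chaperone partner of the endoplasmic reticulum, stood at 57.9, 147 and 117 CPM in the controls and 10.6, 12.5 and 12.7 CPM in CC4:2 (-3.17 ± 0.36, adjusted p = 0.0032) and Xbp1, a factor of that response and of plasma cells, at 217, 532 and 510.4 CPM in the controls and 96.9, 108 and 111 CPM in CC4:2 (-1.99 ± 0.36, adjusted p = 0.0096).

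Matrix proteases included one of the largest falls of single genes. Of 18 proteases and inhibitors 7 were lower (4 without CC4:2-2 and 4 without CC4:2-3) and 2 higher (6 without Control 1). Mmp3, Mmp10, Mmp12 and Mmp13 lie in a cluster on rat chromosome 8 and each holds TGANTCA, the AP-1 pattern, in the 250 bases before its start. The pattern was in 5 of 13 promoters of the list (38.5%) and in 4.49% of all 10221 (3.97% of those called higher and 6.56% of those called lower). The windows (RefSeq, GRCr8, 5′ to 3′, motif in capitals) show it between 55 and 87 bases before the start in each of the 4 genes. They lie at chr8:12782716-12782815 (plus strand), chr8:12925163-12925262 (plus strand), chr8:12974599-12974698 (plus strand) and chr8:12866518-12866617 (plus strand).
Mmp13: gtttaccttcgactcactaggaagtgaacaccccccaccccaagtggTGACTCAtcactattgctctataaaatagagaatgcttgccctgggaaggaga
Mmp3: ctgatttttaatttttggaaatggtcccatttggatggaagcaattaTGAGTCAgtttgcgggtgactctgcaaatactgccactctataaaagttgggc
Mmp10: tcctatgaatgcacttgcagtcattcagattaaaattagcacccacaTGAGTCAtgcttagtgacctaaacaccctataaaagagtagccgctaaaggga
Mmp12: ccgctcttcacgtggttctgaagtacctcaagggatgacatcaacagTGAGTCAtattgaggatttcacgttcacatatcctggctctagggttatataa

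Collagenase Mmp13 stood at 1274, 91.0 and 285 CPM in the controls and 0.208, 0.456 and 0.526 CPM in CC4:2 (-10.41 ± 1.31, adjusted p = 0.0039). Stromelysin Mmp3 stood at 328, 200.5 and 179 CPM in the controls and 9.31, 27.3 and 15.0 CPM in CC4:2 (-3.78 ± 0.47, adjusted p = 0.0038), and Mmp10 at 4.99, 0.937 and 2.12 CPM in the controls and 0, 0.057 and 0 CPM in CC4:2 (-6.73 ± 1.10, adjusted p = 0.0073). Metalloelastase Mmp12, of macrophages, stood at 381, 60.0 and 168 CPM in the controls and 57.7, 21.4 and 25.7 CPM in CC4:2 (-2.54 ± 0.71, adjusted p = 0.037), and its call was lost without Control 1, Control 3, CC4:2-1, CC4:2-2 and CC4:2-3 in turn (adjusted p up to 0.14). Mmp7, the fifth gene with the pattern, was not called (-2.15, adjusted p = 0.2, and 0.048 without CC4:2-1). The tissue inhibitors of these proteases differed in direction. Timp3 and Timp4 were higher, Timp4 at 3.07, 4.37 and 2.85 CPM in the controls and 19.4, 23.9 and 29.6 CPM in CC4:2 (2.82 ± 0.27, adjusted p = 0.0026) and Timp3 at 79.2, 78.0 and 60.5 CPM in the controls and 217, 259 and 196 CPM in CC4:2 (1.63 ± 0.20, adjusted p = 0.0037), while Timp1 was lower (-2.04 ± 0.55, adjusted p = 0.034) and lost its call without CC4:2-1, CC4:2-2 and CC4:2-3 in turn (adjusted p up to 0.13).

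Hippo pathway genes and YAP targets were tested because the study asked about YAP. Of 19 Hippo pathway genes 10 were higher and 2 lower (median 0.86). The higher count was 6 without Control 2, 4 without Control 3, 6 without CC4:2-1 and 4 without CC4:2-2. The lower count was 0 without each of these libraries in turn. Yap1 stood at 139.7, 83.3 and 79.7 CPM in the controls and 190.0, 188 and 186 CPM in CC4:2 (0.90 ± 0.25, adjusted p = 0.037) and its partner Wwtr1, which encodes TAZ, at 108, 63.6 and 50.0 CPM in the controls and 219, 181 and 192 CPM in CC4:2 (1.42 ± 0.30, adjusted p = 0.016). Both sets of samples were free of overlap, but the Yap1 call was lost without Control 2, Control 3, CC4:2-1, CC4:2-2 and CC4:2-3 in turn (adjusted p up to 0.12), and that of Wwtr1 without Control 2, CC4:2-1 and CC4:2-2 in turn (adjusted p up to 0.054). Tead1, the DNA-binding partner, rose by 1.43 ± 0.18 (adjusted p = 0.004) and the kinase Lats2 by 1.12 ± 0.21 (adjusted p = 0.011). Of 20 targets 10 were higher and 2 lower (1 without CC4:2-2 and 1 without CC4:2-3 lower), with a median of 0.59. The TEAD pattern GGAATG was in 6 of 13 target promoters (46.2%) and in 9.75% of all 10221 (10.9% of those called higher and 9.07% of those called lower). Windows of 2 targets that were not called and 2 that were called higher follow (RefSeq, GRCr8, 5′ to 3′, motif on either strand in capitals), at chr2:237225750-237225849 (minus strand), chr1:22624654-22624753 (minus strand), chr8:112182503-112182602 (plus strand) and chr13:103799312-103799411 (plus strand).
Ccn1: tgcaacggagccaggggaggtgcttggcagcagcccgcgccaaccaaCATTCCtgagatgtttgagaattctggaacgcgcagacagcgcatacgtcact
Ccn2: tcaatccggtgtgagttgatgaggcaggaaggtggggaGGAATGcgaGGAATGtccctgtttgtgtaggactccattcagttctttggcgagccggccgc
Amotl2: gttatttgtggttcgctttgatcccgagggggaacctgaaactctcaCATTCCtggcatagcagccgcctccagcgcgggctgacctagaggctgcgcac
Ptpn14: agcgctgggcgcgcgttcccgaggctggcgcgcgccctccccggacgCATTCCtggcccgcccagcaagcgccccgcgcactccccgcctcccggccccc

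Ccn1 and Ccn2, the matricellular targets most used to read YAP activity, stood at 174, 56.0 and 88.0 CPM in the controls and 99.5, 106 and 46.9 CPM in CC4:2 (-0.33 ± 0.47, adjusted p = 0.63) and at 330.2, 100.21 and 122 CPM in the controls and 115, 212 and 134 CPM in CC4:2 (-0.26 ± 0.49, adjusted p = 0.72). Control 1 was the highest sample of all 6 for both, as it was for Col1a1, and without it the log2 fold changes were 0.23 for Ccn1 and 0.46 for Ccn2, of the opposite sign and not called. Ankrd1 stood at 0.439, 2.97 and 17.5 CPM in the controls and 2.03, 2.79 and 2.42 CPM in CC4:2 (-1.52 ± 1.08, adjusted p = 0.33), with Control 3 far above the rest, and the log2 fold change without it was 0.52. Amotl2, an angiomotin of the feedback on YAP, stood at 51.7, 42.5 and 32.5 CPM in the controls and 72.5, 138 and 93.0 CPM in CC4:2 (1.26 ± 0.29, adjusted p = 0.019), and the phosphatase Ptpn14 at 20.2, 12.3 and 7.73 CPM in the controls and 36.4, 52.4 and 29.1 CPM in CC4:2 (1.55 ± 0.39, adjusted p = 0.026). Both were above all controls, and their calls were lost without Control 2, Control 3 and CC4:2-2 in turn (adjusted p up to 0.07) and without Control 2, Control 3, CC4:2-1 and CC4:2-2 in turn (adjusted p up to 0.092). The receptor kinase Axl stood at 167, 163 and 142 CPM in the controls and 372, 457 and 413 CPM in CC4:2 (1.39 ± 0.19, adjusted p = 0.005). Of the stretch and adhesion genes, 8 of 20 were higher and 0 lower (4 without Control 2, 5 without Control 3, 4 without CC4:2-1 and 4 without CC4:2-2). Piezo2, the touch channel, stood at 21.3, 27.2 and 14.9 CPM in the controls and 72.0, 77.4 and 87.3 CPM in CC4:2 (1.90 ± 0.24, adjusted p = 0.004), while Piezo1 was not called (0.35 ± 0.28, adjusted p = 0.38).

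**Figure D4:**
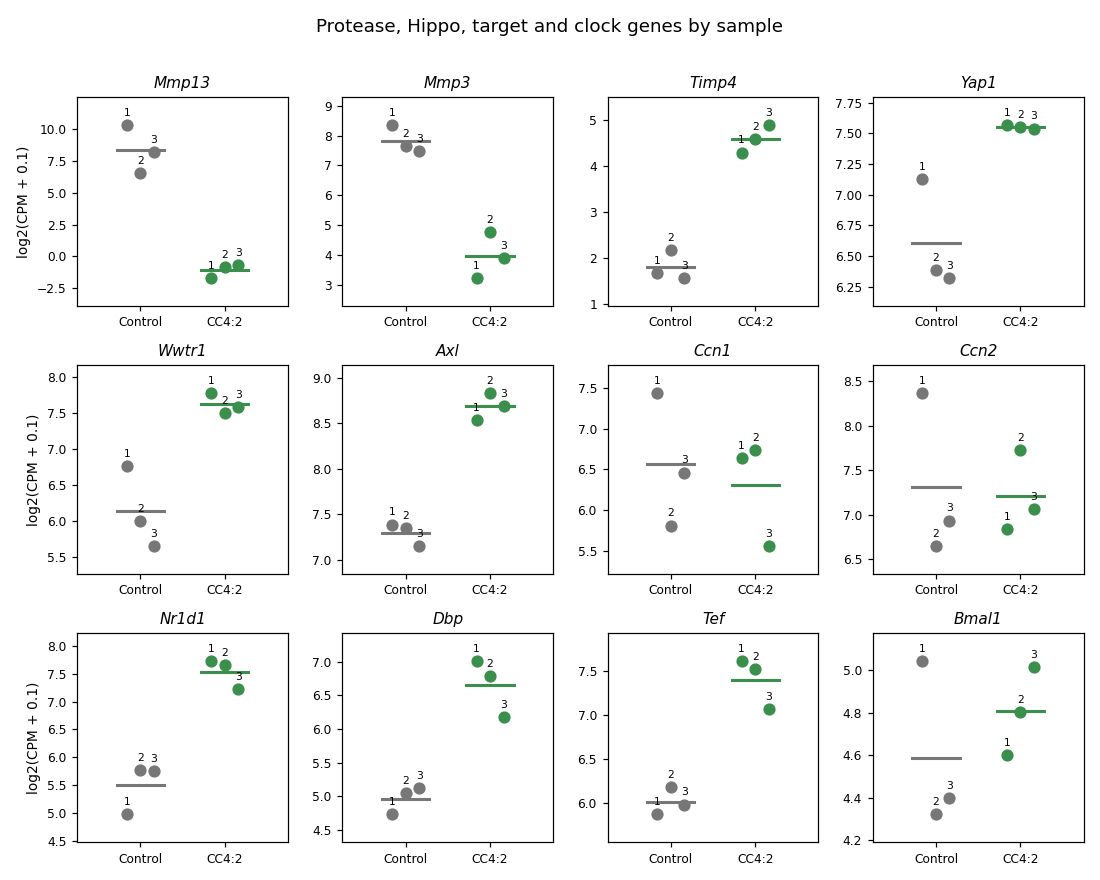
Levels of 12 protease, Hippo, target and clock genes as log2(CPM + 0.1) in each of the 3 Control (grey) and 3 CC4:2 (green) samples, with replicate numbers at the points and a bar at the mean of each group's 3 log values. Mmp13 and Mmp3 lie below all controls, Timp4, Yap1, Wwtr1, Axl, Nr1d1, Dbp and Tef above them, and the groups overlap for Ccn1, Ccn2 and Bmal1.

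Clock output genes were higher and the core activator was not called. Of 16 clock genes 8 were higher and 0 lower (5 without Control 3 higher, 1 without Control 1 lower). Nr1d1, the repressor REV-ERB alpha, stood at 31.5, 54.6 and 53.9 CPM in the controls and 212, 200.1 and 149 CPM in CC4:2 (2.00 ± 0.27, adjusted p = 0.0047), and Dbp, an output factor, at 26.5, 32.9 and 34.7 CPM in the controls and 129, 109.8 and 72.2 CPM in CC4:2 (1.72 ± 0.25, adjusted p = 0.0052). Its relatives Tef and Hlf rose by 1.41 ± 0.20 and 2.18 ± 0.33, and Per1 by 1.94 ± 0.37. Bmal1 (0.19 ± 0.24, adjusted p = 0.59) and Cry1 (-0.07 ± 0.27, adjusted p = 0.86) were not called. Among glucocorticoid-responsive genes 4 of 12 were higher and 2 lower, with Klf9 at 28.9, 23.1 and 23.3 CPM in the controls and 112, 132 and 83.0 CPM in CC4:2 (2.12 ± 0.22, adjusted p = 0.0027) and Fkbp5, a standard target, not called (-0.46 ± 0.16, adjusted p = 0.077, and 0.042 without Control 1). Time of day of sampling is not given in the labels.

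Proliferation genes were lower. Of 26 cell cycle and replication genes 18 were lower and 1 higher (9 without Control 3, 10 without CC4:2-1, 10 without CC4:2-2 and 9 without CC4:2-3 lower). Mki67, the proliferation marker, stood at 62.9, 75.2 and 104 CPM in the controls and 28.0, 22.8 and 24.0 CPM in CC4:2 (-1.69 ± 0.22, adjusted p = 0.0044) and Top2a at 48.6, 36.1 and 64.7 CPM in the controls and 15.6, 15.1 and 18.5 CPM in CC4:2 (-1.60 ± 0.24, adjusted p = 0.0059). The exception, cyclin Ccnd1, stood at 37.4, 27.1 and 32.5 CPM in the controls and 77.7, 103 and 73.9 CPM in CC4:2 (1.39 ± 0.20, adjusted p = 0.0054).

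Genes of excitability and pain signalling were called in both directions, against 14.1% higher and 14.7% lower over all tested genes. Of 18 potassium channel genes 8 were higher (1 without Control 3, 1 without CC4:2-1, 2 without CC4:2-2 and 4 without CC4:2-3) and 4 lower. The pacemaker channel Hcn4 stood at 0.603, 11.4 and 2.44 CPM in the controls and 103, 176 and 128 CPM in CC4:2 (4.84 ± 0.97, adjusted p = 0.013). Kcna3 and Kcnn4, channels of lymphocytes and other leukocytes, stood at 36.8, 74.5 and 86.4 CPM in the controls and 6.81, 3.08 and 7.63 CPM in CC4:2 (-3.49 ± 0.46, adjusted p = 0.0045) and 32.6, 27.7 and 39.6 CPM in the controls and 8.06, 4.90 and 3.26 CPM in CC4:2 (-2.62 ± 0.35, adjusted p = 0.0047). Of 20 sodium, TRP, purinergic and acid-sensing channel genes 5 were higher (8 without Control 2, 2 without Control 3, 3 without CC4:2-2 and 3 without CC4:2-3) and 4 lower. The lower ones included P2rx4, an ATP-gated channel, at 125, 127 and 87.9 CPM in the controls and 29.1, 33.6 and 29.7 CPM in CC4:2 (-1.88 ± 0.19, adjusted p = 0.0027) and Trpm2, an oxidant-gated channel, at 40.8, 77.0 and 94.1 CPM in the controls and 10.1, 9.12 and 10.1 CPM in CC4:2 (-2.85 ± 0.32, adjusted p = 0.0033). Of 18 genes of the prostaglandin system 3 were higher and 3 lower (median -0.25), both shares near those of all genes. Ptgs2, the inducible enzyme of prostaglandin synthesis, stood at 37.2, 31.1 and 79.3 CPM in the controls and 8.06, 5.87 and 8.05 CPM in CC4:2 (-2.74 ± 0.40, adjusted p = 0.0052), and Ptger3, a prostaglandin E2 receptor, at 0.768, 3.20 and 1.79 CPM in the controls and 8.53, 21.5 and 14.0 CPM in CC4:2 (2.95 ± 0.58, adjusted p = 0.013). Of 8 axonal and neuropeptide transcripts tested, 0 were called higher and 1 lower. The higher count was 2 without Control 1 and 1 without CC4:2-2, and the lower count 2 without Control 1 and 0 without CC4:2-2.

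Outside the lists, the largest rises by the naming rule included Calb1, a calcium-binding protein, at 0.384, 2.42 and 0.488 CPM in the controls and 71.2, 37.5 and 47.1 CPM in CC4:2 (5.60 ± 0.71, adjusted p = 0.004), and Slc24a2, a sodium-calcium exchanger, at 0, 0.078 and 0.0814 CPM in the controls and 3.33, 1.82 and 2.00 CPM in CC4:2 (5.44 ± 0.75, adjusted p = 0.005). Foxo6, a forkhead factor, stood at 0.165, 0.546 and 0.325 CPM in the controls and 8.58, 12.1 and 7.00 CPM in CC4:2 (4.75 ± 0.50, adjusted p = 0.0028). Klk10, a secreted protease, had no count in the controls and 1.56 to 4.47 CPM in CC4:2, at least 37.6-fold higher against the same floor. It was the 1 called gene with no count in any control, against 27 called genes with no count in any CC4:2 sample. All of these passed the filter through 1 group alone and so had to differ. Such genes numbered 147 through CC4:2 alone and 263 through the controls alone, so the 1 and the 27 are descriptions. Hspa1a, an inducible heat shock chaperone, was among the 27, at 3.78, 4.84 and 11.6 CPM in the controls and 0, 0 and 0 CPM in CC4:2, at least 117-fold lower. Heat shock and chaperone genes gave few calls as a list, with 1 higher and 1 lower of 16 tested (median -0.11). The higher count was 2 without Control 1, 0 without Control 3, 0 without CC4:2-1 and 0 without CC4:2-2, and the lower count 2 without Control 1.

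**Figure D5:**
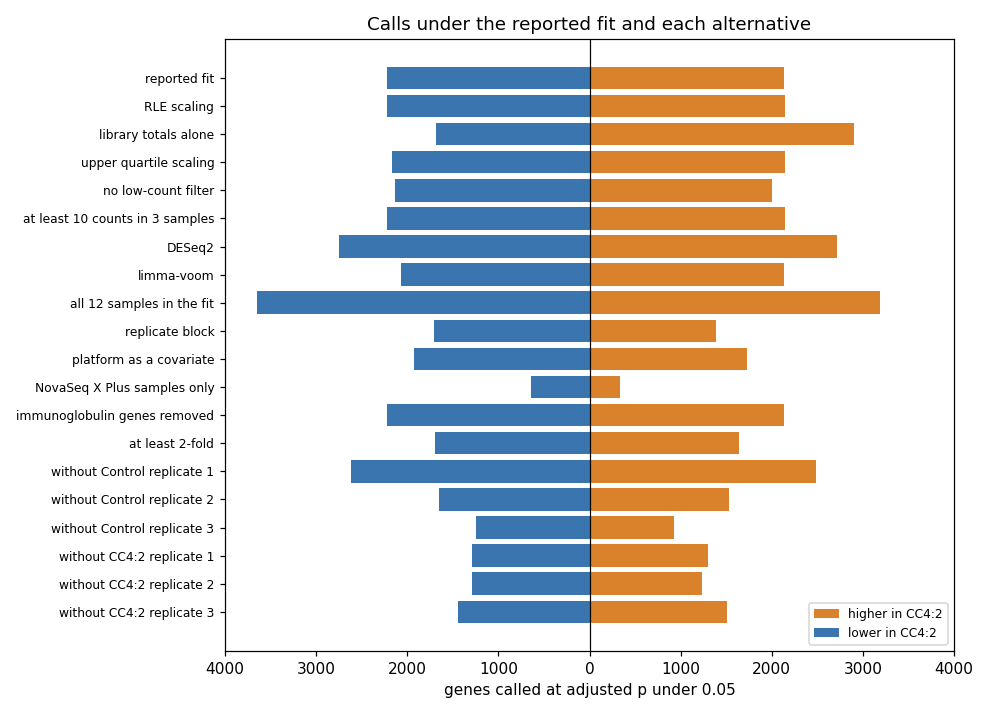
Genes called higher (orange, right) and lower (blue, left) in CC4:2 under the reported fit and each alternative, as numbers of genes, with the alternatives that leave out 1 library at the bottom. Counts run from 332 higher and 644 lower with the NovaSeq samples alone to 3186 higher and 3649 lower with all 12 samples in the fit.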

How the data were processed

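Poly(A) RNA of 3 Control and 3 CC4:2 stumps was sequenced from stranded libraries in pairs, per the labels. The deposited values are expected counts per gene, not normalized, made with HISAT2, StringTie, RSEM and DESeq2, per the submitters' processing notes. Tool versions, genome build and annotation are not given in the sources used here. All 12 deposited tables are identical. Of 30562 genes 4367 have no symbol. Counts were rounded. Totals were 13763067 to 18632280 per sample, so counting error is largest for genes of low level.

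Tests used edgeR 4.0.16 (quasi-likelihood, TMM, filterByExpr, Benjamini-Hochberg adjusted p under 0.05) in R 4.3.3 with limma 3.58.1, on these 6 samples with 4 residual degrees of freedom and no covariate. SE is the absolute log2 fold change over the root of the F statistic. Genes were named by rule: the 15 largest rises and falls, up to 6 members of smallest p per list, members against a list's direction, uncalled members of highest level, 9 fixed genes and the 10 of smallest p. Some genes are not reported here. The text prints 123 of these and 27 more that were chosen after their values were seen: Amotl2, Bmal1, Ccl22, Ccl24, Cd163, Col3a1, Cry1, Csf1r, Csf3, Cxcl1, Cxcl10, Fkbp5, Gli1, Gli3, Hspg2, Itgb1, Kcna1, Lama2, Lgi4, Mmp12, Mmp7, Mrc1, Piezo1, Ptpn14, Sema3b, Timp1 and Tlr4. The comparison and the 65 lists were chosen with earlier results of these data known. Promoters were matched by symbol (10221 of 15190). DESeq2 1.42.0 was an alternative. Near-identical copies, such as immunoglobulin genes, can share reads.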

Additional observations from a re-analysis of the deposited data

How the results depend on the processing

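Counts of calls stayed within 1.5 times of 2137 higher and 2226 lower genes under RLE scaling, upper quartile scaling, library totals alone, no low-count filter, a filter of at least 10 counts in 3 samples, DESeq2, limma-voom, the platform as a covariate, removal of immunoglobulin genes and a minimum of 2-fold. With all 12 samples in the fit they were 3186 higher and 3649 lower, and with the NovaSeq X Plus samples alone 332 and 644, a fit with fewer samples. Leaving out 1 library gave 924 to 2481 higher and 1247 to 2618 lower calls. Replicate numbers are shared between the groups. Deviations of same-numbered samples correlated at -0.03, -0.13 and -0.11, and 0 of 3 samples correlated best with their own number. With 3 samples a group these correlations cannot exclude a pairing. With the replicate block, a fit with fewer residual degrees of freedom, the counts were 1387 higher and 1708 lower. Of the 4363 calls, 831 were kept in all 19 alternatives, 311 higher and 520 lower, and no alternative called a gene in the opposite direction.

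Over the 150 named genes, 2699 of 2850 combinations of gene and alternative kept direction and side of the threshold, 110 kept direction but lost the call, 14 gained one and 27 changed sign, all 27 in genes that were not called. Since many of these genes were chosen because their calls were kept, that share does not describe called genes in general. With the NovaSeq samples alone the log2 fold change was 0.52 for Ankrd1, -0.0269 for Bmal1, -0.153 for Cd163, -0.0579 for Col1a1 and -0.359 for Tlr4. With library totals alone it was 0.107 for Cry1 and 0.0604 for Lamp1. For Ccl22 it was -1.08 with limma-voom, -0.952 with the replicate block and -0.0854 with the platform as a covariate. With 1 library left out it ran from -2.08 to 0.52 for Ankrd1, -1.95 to 0.65 for Ccl22, -0.64 to 0.23 for Ccn1, -0.56 to 0.46 for Ccn2, -0.11 to 0.77 for Cd163, -0.32 to 1.31 for Col1a1, -0.214 to 0.0704 for Cry1, -0.207 to 0.0169 for Lamp1 and -0.17 to 0.27 for Tlr4. The cause was not tested.

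In simulated counts of 15190 genes with 3 samples a group the test recovered 55 of 100 genes changed 4-fold and 0 of 100 changed 2-fold. There 3 calls were false (5.17% of the calls). No other gene was changed, a far smaller share than the 28.7% called in the data. The adjusted p threshold was therefore harder to reach in the simulation, and its recoveries do not give the power of the reported fit.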
